A study of Homo sapiens with 2 samples.

Results

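The cytokine signalling genes described here are 9 human genes of the Janus kinase (JAK) and STAT pathway: the inhibitors SOCS1 and SOCS3, the kinases TYK2, JAK1 and JAK2, and the transcription factors STAT2, STAT3, STAT5A and STAT5B. IRF1, an interferon-induced transcription factor, was mapped by chromatin immunoprecipitation and sequencing (ChIP-seq) in NB4, an established acute promyelocytic leukemia cell line. Per the labels, NB4 cells were given all-trans retinoic acid (ATRA), the drug that differentiates this leukemia, or its solvent DMSO, for 4 hours. There was 1 library of ATRA-treated cells and 1 control library. The deposited list carries the name of the ATRA library and holds 1986 binding summits, each a single base with a peak score. A summit belonged to a gene of the set when the authors named that gene as its nearest gene, at any distance, or when it lay within 50 kb of either end of SOCS1. These rules gave 7 of the 1986 summits, and both summits in the SOCS1 window also had SOCS1 as the nearest gene.

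In this pathway a cytokine binds its receptor, receptor-bound kinases of the JAK family phosphorylate STAT proteins, and the STAT proteins enter the nucleus and switch on genes. TYK2 and JAK1 serve the type I interferon receptor, JAK1 and JAK2 the interferon gamma receptor. SOCS proteins are made in response to the signal and block the kinases, which closes a negative feedback loop. In myeloid cells the same pathway carries the signals of granulocyte growth factors, mainly through STAT3 and STAT5. IRF proteins bind repeats of the letters GAAA, and most STAT dimers bind a palindrome of TTC and GAA.

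Of the 9 genes, 5 had a summit (SOCS1, SOCS3, TYK2, STAT2 and STAT5A) and 4 had none (JAK1, JAK2, STAT3 and STAT5B). SOCS1 and STAT2 had 2 summits each, and the other 3 had 1 each. The strongest was at the SOCS1 promoter, with a score of 128, and the next at the STAT2 promoter, with 74.8. The remaining 5 summits scored from 12.6 to 21.3, below the median of 25.2 over the whole list. The score is the authors' own value on a scale that the file does not state, so it only ranks summits within the list. All values come from 1 library, so they have no replicate error and nothing was tested between treated and control cells. The caller's background is not given in the sources used here. A gene without a summit is therefore not shown to be unbound.

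The SOCS1 promoter is shown first because its summit lies beside the letters that IRF proteins recognise. The sequences are RefSeq's on GRCh38.p14, written 5′ to 3′ in the direction of each gene and ending at the base before RefSeq's start site. Capitals mark GAAA, any 2 bases and GAAA on either strand, which on the opposite strand reads TTTC, any 2 bases and TTTC. The SOCS1 stretch is chr16:11256205-11256454 on the minus strand. The stretch of LOC105371082, a long non-coding RNA gene whose span covers SOCS1 on the opposite strand, is chr16:11312623-11312872 on the plus strand, and holds the strongest summit near SOCS1.
SOCS1: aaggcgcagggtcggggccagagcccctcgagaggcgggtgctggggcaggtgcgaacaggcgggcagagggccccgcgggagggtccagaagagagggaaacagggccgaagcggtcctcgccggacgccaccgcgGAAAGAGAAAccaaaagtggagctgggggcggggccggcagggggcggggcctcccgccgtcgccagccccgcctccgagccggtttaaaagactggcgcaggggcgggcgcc
LOC105371082: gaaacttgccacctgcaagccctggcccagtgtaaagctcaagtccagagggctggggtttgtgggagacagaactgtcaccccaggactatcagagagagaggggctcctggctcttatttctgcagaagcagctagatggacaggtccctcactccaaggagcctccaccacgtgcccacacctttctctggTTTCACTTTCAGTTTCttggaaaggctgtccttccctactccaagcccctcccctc

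SOCS1 encodes the inhibitor that binds the kinases of the interferon receptors. Its strong summit was at chromosome 16 position 11256326 on hg38, 144 bp upstream of the start site, in the class promoter, 122 bp beyond the 5′ end of the RefSeq gene (11254417 to 11256204). It ranked 92nd of 1986, and its score of 128 exceeded 95.4% of all summits. The summit falls on base 129 of the printed stretch, and the GAAA repeat occupies bases 138 to 147, which are positions 11256308 to 11256317. The centre of the repeat was 13.5 bp from the summit.

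A second summit with SOCS1 as the nearest gene was at position 11225594, 30588 bp downstream of the start site and 28.8 kb beyond the 3′ end of the gene. It was classed as intergenic and scored 21.3, which exceeded 39.6% of the list. In the SOCS1 window of 50 kb these were the only summits.

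A group of 3 summits began 1211 bp outside that window, on the upstream side of SOCS1. All had the microRNA gene MIR548H2 as the nearest gene in the authors' annotation. They were at positions 11307415, 11311933 and 11312807, or 51.2, 55.7 and 56.6 kb beyond the 5′ end of SOCS1. The first was classed as a MIR548H2 promoter and scored 36.1, the middle one was intergenic and scored 15.8, and the last was intergenic and scored 197. That last summit ranked 30th of 1986, above the SOCS1 promoter summit.

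The authors' annotation calls the summit of score 197 intergenic, whereas in the RefSeq table it lies within a promoter window of LOC105371082 (span 11249601 to 11395790). This window was looked at after its score was seen. The summit is base 185 of the printed stretch. The GAAA repeat occurs there in overlapping copies on the opposite strand, at bases 195 to 204 and 201 to 210, with centres 14.5 bp and 20.5 bp from the summit. The same window also holds TTC, any 3 bases and GAA, the STAT palindrome, at bases 208 to 216. Which gene, if any, this site acts on was not tested.

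**Figure D1:**
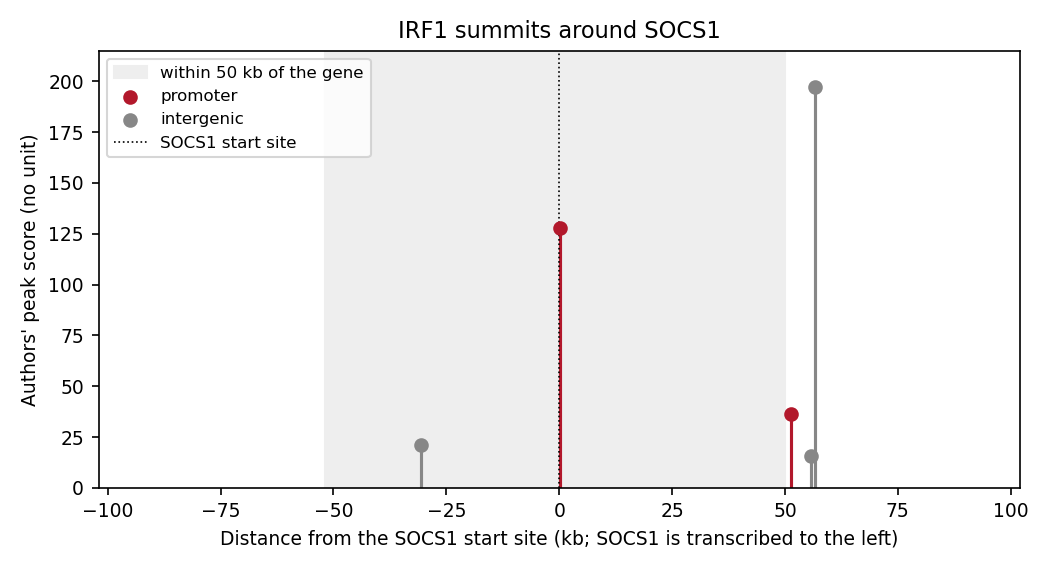
IRF1 summits within 100 kb of SOCS1, by distance from its start site in kb (x axis) and the authors' peak score (y axis), coloured by annotated class; the shaded span is within 50 kb of the gene. The promoter summit of score 128 and the distal one of 21.3 lie inside it, and 3 summits of 36.1, 15.8 and 197 lie just outside on the upstream side.

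SOCS3, the inhibitor best known for acting on the receptors of interleukin 6 and of the granulocyte growth factor, had no summit at its promoter. The 1 summit assigned to it, on chromosome 17 at 78329470, was 30609 bp downstream of the start site and 27.3 kb beyond the 3′ end of the gene (78356778 to 78360925). It scored 12.6, the lowest of the 7, and exceeded 5.14% of the list. The authors' class was intergenic, and the position lies within the RefSeq span of the long non-coding RNA gene LOC105371912. SOCS1 and SOCS3 thus each had an intergenic summit scoring below the list median, 21.3 and 12.6. Measured from the authors' start sites these lay about as far downstream, at 30588 bp and 30609 bp. Beyond the 3′ ends of the genes they lay at 28.8 kb and 27.3 kb. In the whole list 28 intergenic summits lay between 25 and 35 kb downstream of the nearest start site. The 2 promoter windows of SOCS3 in RefSeq held no summit and no GAAA repeat of the searched form.

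Among the kinases, TYK2 alone had a summit. TYK2 is bound to the type I interferon receptor and also serves the receptors of interleukins 12 and 23. The TYK2 summit, on chromosome 19 at 10380487, followed the start site by 85 bp, in the class promoter, and lay inside the RefSeq span (10350533 to 10380572). The score of 13.3 exceeded 7.60% of the list, below the lower quartile of 17.7. Over the whole list the median score was 25.3 within 10 kb of a start site and 25.2 farther away. The RefSeq promoter window of TYK2 ends 36 bp short of the summit and held neither motif.

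JAK1, the kinase shared by both interferon receptors, had no summit in or near its 235 kb span on chromosome 1 (64833229 to 65067746). The closest summit was 745 kb away, had PDE4B as its nearest gene and scored 17.2. JAK2, the kinase of the interferon gamma and growth factor receptors, had none in its 146 kb span on chromosome 9 (4984390 to 5129948). The closest was 321 kb away and belonged to CD274, the gene of the immune checkpoint ligand PD-L1, with a score of 22.1. Neither kinase had a summit within 100 kb of its span, whereas TYK2 had 4, of which 3 had other nearest genes. None of the 3 JAK1 and 4 JAK2 promoter windows in RefSeq held the GAAA repeat.

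STAT2 joins IRF9 in the complex that turns on genes after type I interferon. It had 2 summits 352 bp apart, on either side of its annotated start. The stronger was at chromosome 12 position 56360481, 228 bp upstream of the start site, in the class promoter, and scored 74.8, which exceeded 86.7% of the list. The weaker was at position 56360129, 124 bp downstream of the authors' start site, and scored 20.8, which exceeded 37.6%. RefSeq's current STAT2 span (56341597 to 56360107) begins lower than the start site the authors' annotation used, so by it both summits lie upstream, 22 bp and 374 bp beyond the 5′ end.

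The span of APOF, the gene of apolipoprotein F, begins 461 bp beyond the 5′ end of STAT2. The stronger summit was 87 bp from the APOF span, and the weaker summit carried the class of an APOF transcription termination site, although STAT2 was its nearest gene. The RefSeq window of STAT2 contains the weaker summit and held no GAAA repeat. The sequence under the stronger summit lies outside that window and was not analysed here.

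STAT5A, which with STAT5B relays signals of growth factors and interleukins, had 1 summit at chromosome 17 position 42289080. It lay 1024 bp downstream of the authors' start site in intron 1 of 18, and 1641 bp inside the 5′ end of the RefSeq span. Its score of 21.3 exceeded 38.9% of the list. STAT5A and STAT5B are neighbours on opposite strands, and their RefSeq spans overlap by 932 bp at the 5′ ends. The summit was 710 bp beyond the 5′ end of the STAT5B span (42199177 to 42288370), which is the outer end of its longest form; STAT5B had no summit by name. The STAT5B promoter window in the RefSeq table starts from another site and ends 12.4 kb from the summit. STAT3, the next gene, which relays interleukin 6 and granulocyte growth factor signals, had none. The same summit was the closest one to its span (42313324 to 42388442), at 24.2 kb from the 3′ end and far from the promoter. The 3 STAT5A windows, the STAT5B window and the STAT3 window held neither motif. The summit lies outside all of these windows, so the sequence under it was not searched.

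**Figure D2:**
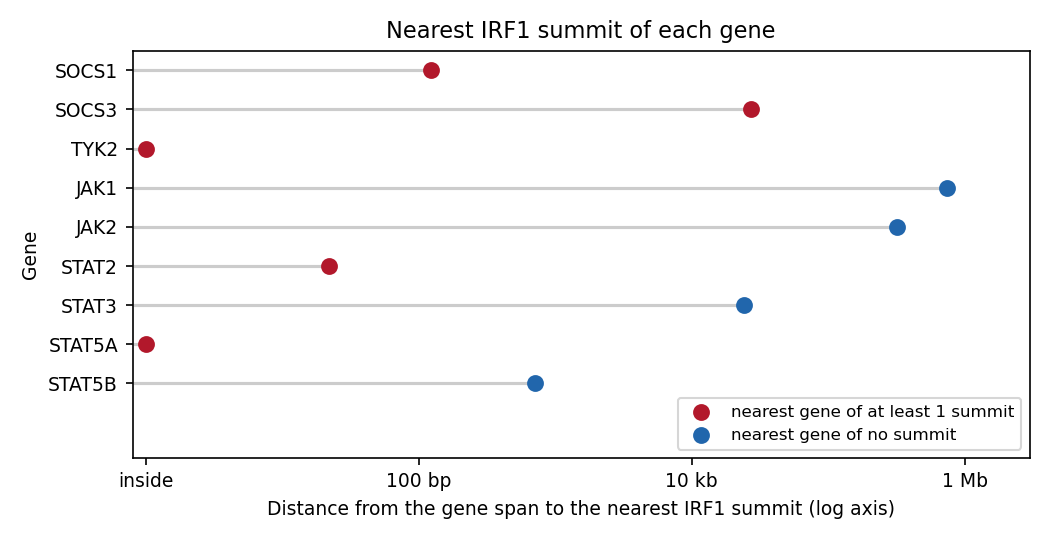
Distance from the RefSeq span of each of the 9 genes to the nearest IRF1 summit of the list (log axis; a summit within the span is drawn at the left edge), with genes that had a summit by name in red and the others in blue. TYK2 and STAT5A have a summit inside, STAT2, SOCS1 and STAT5B at 22, 122 and 710 bp, STAT3 and SOCS3 at 24.2 and 27.3 kb, and JAK2 and JAK1 at 321 and 745 kb.

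Ranked by score, the summits fell into 3 levels. SOCS1 (128) and STAT2 (74.8) were above the upper quartile of the list, 44.0. The distal SOCS1, the STAT5A and the weaker STAT2 summits lay close together at 21.3, 21.3 and 20.8, and the list gives no error by which such neighbours could be told apart. TYK2 (13.3) and SOCS3 (12.6) were below the lower quartile, 17.7. The median of all 7 summits was 21.3, against 25.2 for all 1986 summits. A summit next to a start site could score low or high: TYK2 had its summit at 85 bp and scored 13.3, while SOCS1 had one at 144 bp and scored 128.

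**Figure D3:**
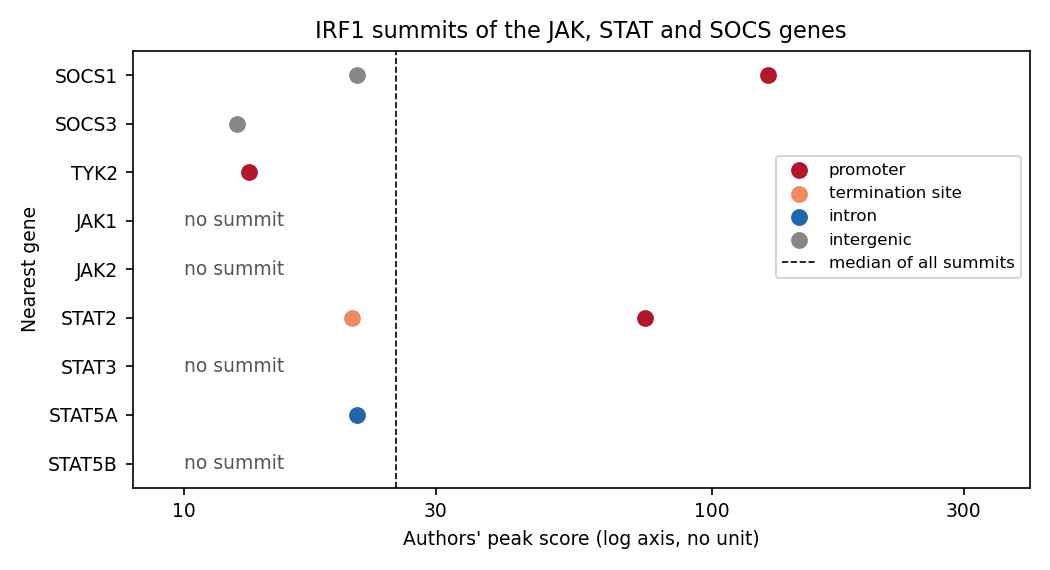
Authors' peak score (x axis, log scale, no unit) of each IRF1 summit by its nearest gene (y axis), coloured by the authors' genomic class, with a dashed line at the median of all 1986 summits (25.2). The promoter summits of SOCS1 (128) and STAT2 (74.8) are the only ones right of the line, and JAK1, JAK2, STAT3 and STAT5B have none.

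**Figure D4:**
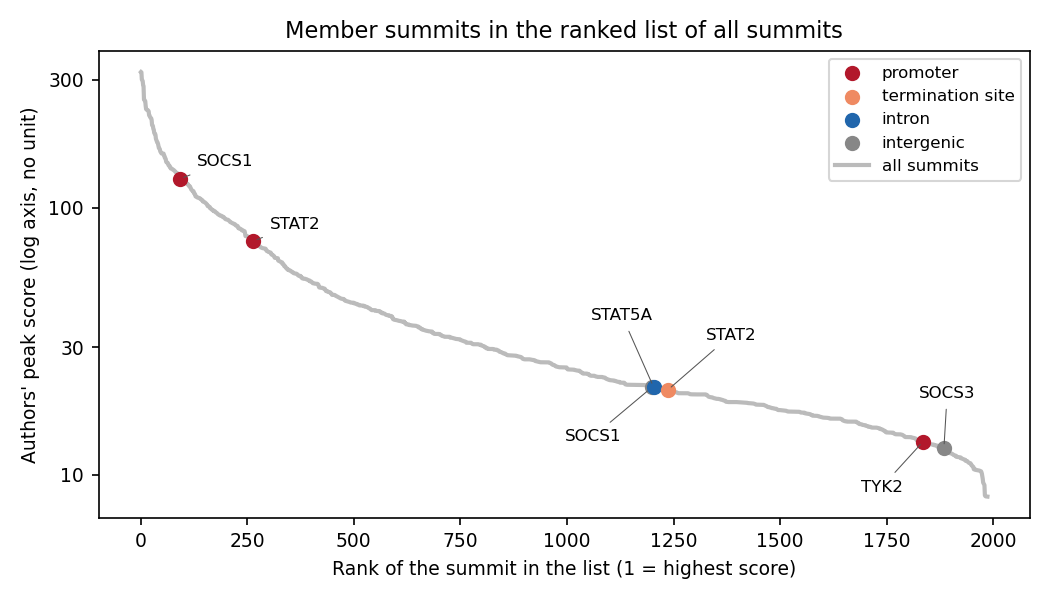
All 1986 summits ordered by rank (x axis) and score (y axis, log scale), with the 7 summits of the JAK, STAT and SOCS genes marked and coloured by class. SOCS1 at rank 92 and STAT2 at rank 264 stand on the steep upper part, 3 summits between ranks 1200 and 1237, and TYK2 and SOCS3 near the end of the list at ranks 1835 and 1884.

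As background for these counts, 6.38% of 19970 protein-coding genes were named as nearest to some summit at any distance, against 5 of the 9 genes here. Within 10 kb of a start site it was 3.37%, against 4 of the 9, namely SOCS1, STAT2, STAT5A and TYK2. The 9 genes were proposed with results of this list known, so these shares describe them and carry no test. Of the 1275 protein-coding genes with a summit, 141 (11.1%) had 2 or more, as SOCS1 and STAT2 did.

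All 9 genes had at least 1 promoter window in the RefSeq table, 17 windows of 300 bases in all (250 before the start and 50 after). The GAAA repeat was found in 1 of the 17, that of SOCS1, and the STAT palindrome in none. Only 2 of the 17 held a summit, namely the SOCS1 promoter summit and the weaker STAT2 summit. The other summits of the 9 genes lie outside these windows, so the sequence under them was not searched for either motif. Over all 34943 distinct windows the repeat was in 3.57% and the palindrome in 7.66%. Of the 299 windows with a summit, 38.5% held the repeat (95% Wilson interval 33.1 to 44.1), against 3.27% (3.09 to 3.46) of those without. The share was 61.5% (53.5 to 68.9) in the 148 windows with a highest score above 24.2, where SOCS1 belongs, and 15.9% (10.9 to 22.6) in the other 151, where the weaker STAT2 summit places its window. In the 115 windows with both, the median distance from the highest summit to the centre of the nearest repeat was 15.5 bp, and the SOCS1 distance was 13.5 bp. The palindrome was in 7.69% (5.18 to 11.3) of windows with a summit and in 7.66% (7.38 to 7.94) of the others. The windows are the units here, several belong to 1 gene, and the intervals cover counting error only. GC content of the 17 windows ran from 41.7% (JAK1) to 82.0% (STAT5B), with 74.0% for SOCS1 and 66.3% for STAT2, against a median of 58.7% over all windows and 62.7% over those with a summit.

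Beyond the 9 genes, 29 other genes of the pathway were read from the same list: receptor chains, JAK3, STAT4, STAT6, IRF9, other SOCS genes, PIAS proteins, phosphatases, SH2B3 and USP18. A summit within 10 kb was assigned to 2 of these (6.90%, 95% Wilson interval 1.91 to 22.0), beside the background of 3.37%. These pathway genes were chosen with earlier results of these data known, and 1 of the 30 chosen is not reported here. The share therefore describes the 29 genes only. Its interval would cover the counting error of a random draw, which this list was not, so neither carries a test against the background. USP18, which removes ISG15 from proteins and dampens the type I interferon receptor, had a summit of score 212 on chromosome 22 at 18150098, in the 5′ UTR and 107 bp past its start site, above 98.7% of the list. SH2B3, the adaptor LNK that restrains JAK2 signalling in blood cells, had one of 106 in an intron 712 bp downstream of its start site, above 92.7%.

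A further 2 of the 29 had a summit only beyond 10 kb. At any distance 4 of the 29 had one, beside 6.38% of all protein-coding genes, so having none was the common case. PTPN1, a phosphatase that acts on JAK2 and TYK2, had one of 28.0 at 26.5 kb upstream, and STAT4, which relays interleukin 12, had one of 18.5 at 37.8 kb upstream. The summit closest to the STAT4 span, at 9.11 kb from its nearer end, scored 89.2 but had another nearest gene. That distance runs from the span and the 37.8 kb from the start site, so it does not place this summit nearer the promoter. The other 25 had none as nearest gene, among them the interferon receptor chains IFNAR1, IFNAR2, IFNGR1 and IFNGR2, JAK3, STAT6, CISH and SOCS2. IRF9, the partner of STAT2, was also without one, and the closest summit to its span lay 14.6 kb away with PSME2, a proteasome activator subunit, as nearest gene and a score of 127.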

How the data were processed

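IRF1 ChIP-seq of NB4 cells was available as 1 list of summits named for the ATRA library; the control library was not analysed here, and each group had 1 library. The submitters' processing notes name the build hg38, the caller MACS 1.4.2 and Bowtie2 2.2.9, and HOMER's annotatePeaks.pl assigned class, distance and nearest gene, per the file headers. The peak score is deposited by the authors on an unstated scale; how the caller was set (background, threshold, duplicates) is not given in the sources used here, and read depth per summit is unknown. Signed distances and positions are also the authors' values, per the file headers.

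Rows were taken by gene name and were the same as those by Entrez identifier. Spans, strand and promoter windows came from RefSeq tables of GRCh38.p14, the assembly of hg38; exons were not used here. Motifs were searched on both strands, overlaps included, after the search was tested on simulated data. Computations used Python 3.11.15 with pandas 2.3.3 and scipy 1.17.1. No test was run, since 1 library cannot give one. The genes, lists and the rule for named genes (all 9 genes, genes at their summits, and listed pathway genes with a summit) were chosen with earlier results of these data known; the summits beyond the SOCS1 window, LOC105371082, IRF9 the count of downstream intergenic summits and the comparison of windows with and without a summit were added after values were seen. The pathway list held 30 genes, of which 1 is not reported here. Alternatives were score, distance, window, merging, assignment by span, reference set and motif form.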

Additional observations from a re-analysis of the deposited data

How the results depend on the processing

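No paired analysis was possible because there was 1 library in a group, and for the same reason no replicate could be left out. Of 31 alternatives over 11 results, 22 stayed within the limits set (1.5-fold for a count, the 95% interval for a share) and 9 moved. With the 993 highest summits, which by construction drops scores below the median, genes with a summit numbered 2 at any distance and 2 within 10 kb (SOCS1 and STAT2), their summits 2, and the SOCS1 window held 1. That window held 1 summit at 25 kb and 5 at 100 kb. At a TSS distance of 50 kb, 4 of the other pathway genes had a summit, and with spans extended by 10 kb, 3. The extension added STAT4 through a summit that had another nearest gene. Against summits within 10 kb of a TSS, the highest SOCS1 summit exceeded 94.1% and the highest STAT2 summit 84.6%. With spans extended by 10 kb, 5 of the 9 genes had a summit, STAT5B taking the place of SOCS3. A repeat of GAA with 2 bases between its copies was found for SOCS3 and not for SOCS1. Its copies are shorter than GAAA with the same 2 bases between them, so it is not a looser form of the main motif. Absent summits do not show absent binding, because read depth is unknown.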
